A study of Danio rerio with 6 samples.

Results

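The genes described here encode the Wnt ligands, their receptors, their secreted antagonists, and the core of the β-catenin branch of the pathway in zebrafish embryos exposed to pentachlorophenol (PCP), a chlorinated biocide. They were the 55 of 21228 rows of the expression table whose gene symbol begins with wnt and a digit, fzd, sfrp, dkk and a digit, axin, lef1, tcf7, ctnnb1 or wif1, or is lrp5, lrp6 or apc. They comprised 23 ligands, 14 receptors and co-receptors, 9 secreted antagonists, 4 genes of the β-catenin destruction complex and β-catenin itself, and 5 TCF/LEF factors. The rule reads gene symbols only, and all 55 genes had reads in at least 4 of the 6 libraries.

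Whole wild-type Tuebingen embryos were kept in 5 or 200 μg/l PCP, or in the dimethyl sulfoxide (DMSO) vehicle alone, from shortly after fertilization, and were collected at 10 or 24 hours post-fertilization (hpf). The 6 groups were 10L and 10H (5 and 200 μg/l at 10 hpf) with the control 10C, and 24L and 24H (5 and 200 μg/l at 24 hpf) with the control 24C; all 6 carried the same share of DMSO. Each group was sequenced as 1 library from a pool of embryos, so no spread between embryos or clutches was available, and every test below compares 2 libraries rather than 2 conditions. Since whole embryos were used, fewer cells of a type and less RNA per cell cannot be told apart.

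Wnt proteins are secreted lipid-modified signals that bind Frizzled (Fzd) receptors with or without the co-receptors Lrp5 and Lrp6. In the β-catenin branch this binding stops a complex of Axin, Apc and kinases from destroying β-catenin, which then enters the nucleus and switches on genes together with TCF/LEF factors. In the zebrafish gastrula and tail bud this branch promotes ventral, lateral and posterior fates and keeps the progenitors of the trunk and tail, whereas other ligands drive the cell movements that narrow and lengthen the body axis without β-catenin. At 10 hpf gastrulation ends, and by 24 hpf (the prim-5 stage) the somites have formed and the heart has begun to beat.

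Library totals ranged from 47409208 reads in 24C to 59864868 reads in 24H, and 1 read corresponded to between 0.862 and 1.07 normalized counts. The median of the 55 genes in a library lay between 344 and 843 reads. Fold changes (FC) are ratios of normalized counts with 95% Clopper-Pearson intervals that cover counting error only, so they do not include variation between embryo pools. The words rose and fell are used of a gene whose level changed more than 2-fold and whose reads in both libraries, compared by an exact binomial test (two-sided), gave an unadjusted p under 0.05.

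The 55 genes moved most at 24 hpf under 200 μg/l. In 24H against 24C, 18 rose and 4 fell (40% of the 55), while 11.9% of all 21217 genes tested rose and 16.4% fell, 28.3% in all. In 10H against 10C, 6 rose and 8 fell (25.5%), with a background of 13.0% of all genes (6.69% rose and 6.33% fell). In 10L against 10C, 6 rose and 2 fell (14.5%), with a background of 6.04% (3.65% rose and 2.39% fell). In 24L against 24C, 3 rose and 2 fell (9.09%), close to the 7.68% of all genes (3.50% rose and 4.18% fell). Among genes with at least 10 reads on average the background was 6.37% in 10L, 15.2% in 10H, 8.08% in 24L and, for the last of the treated libraries, 32.1% in 24H. Altogether 37 of the 55 genes passed in at least 1 of the 4 treated libraries, 27 of them in 1 only, 8 in 2 and 2 in 3, and 18 passed in none. The matching share of all genes was not counted, so these 37 cannot be set against a background. Since no spread between pools could be measured, edgeR's exact test was also run with an assumed biological coefficient of variation, and at 0.4 it left in 24H 7 genes that rose (wnt8a, wnt8-2, wnt7ba, wnt11r, wnt16, fzd7a and fzd8b) and 2 that fell (wnt4b and sfrp1b), and in 10H 3 that fell (wnt11r, wnt7ba and sfrp2). These were 16.4% of the 55 genes in 24H and 5.45% in 10H, while that test called 11.5% of all genes in 24H (4.28% rose and 7.20% fell) and 3.27% in 10H. With a limit of 4-fold in place of 2-fold, 3 of the 55 rose and 1 fell in 24H (7.27%), below the 10.5% of all genes (3.51% rose and 6.95% fell). Markers of embryonic stage differed too: in 24H 26 of 28 markers of prim-5 embryos fell and 11 of 21 late gastrula markers rose, and in 24L 7 fell and 5 rose of the same lists. In 10H 7 late gastrula markers rose and 2 fell, with a median log2 fold change of 0.91. The part of these markers in the results at either age was not tested.

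**Figure D1:**
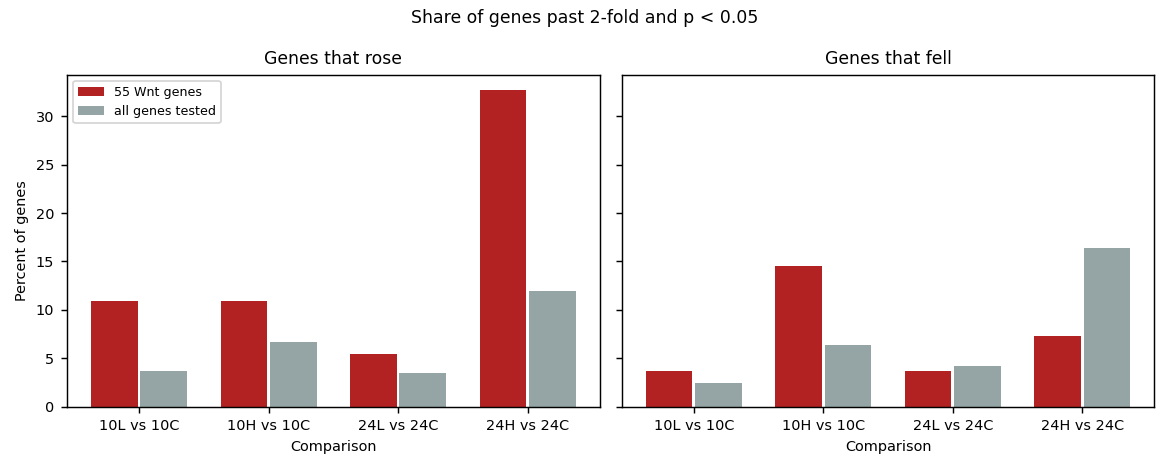
Share of the 55 Wnt pathway genes (red, left bar of each pair) and of the 21217 genes tested (grey) that rose (left panel) or fell (right panel) by more than 2-fold with p under 0.05, in percent, for each treated library against the control of its age. In 24H, 32.7% of the 55 genes rose, against 11.9% of all genes, and 7.27% fell, against 16.4% of all genes.

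The median log2 fold change (1 added to the normalized counts, genes with at least 10 reads on average) was 0.61 for the 55 genes in 24H against 24C, while that of all genes was -0.03. It was 0.29 in 24L (all genes -0.02), 0.30 in 10H (all genes 0.02) and 0.04 in 10L (all genes -0.02). In 24H, 42 of the 55 genes lay above their 24C level and 13 below it. The higher levels were spread over the groups of genes: the 24H median was 0.93 for the ligands, 0.52 for the receptors, 0.25 for the secreted antagonists, 0.63 for the destruction complex and β-catenin, and 1.23 for the TCF/LEF factors.

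**Figure D2:**
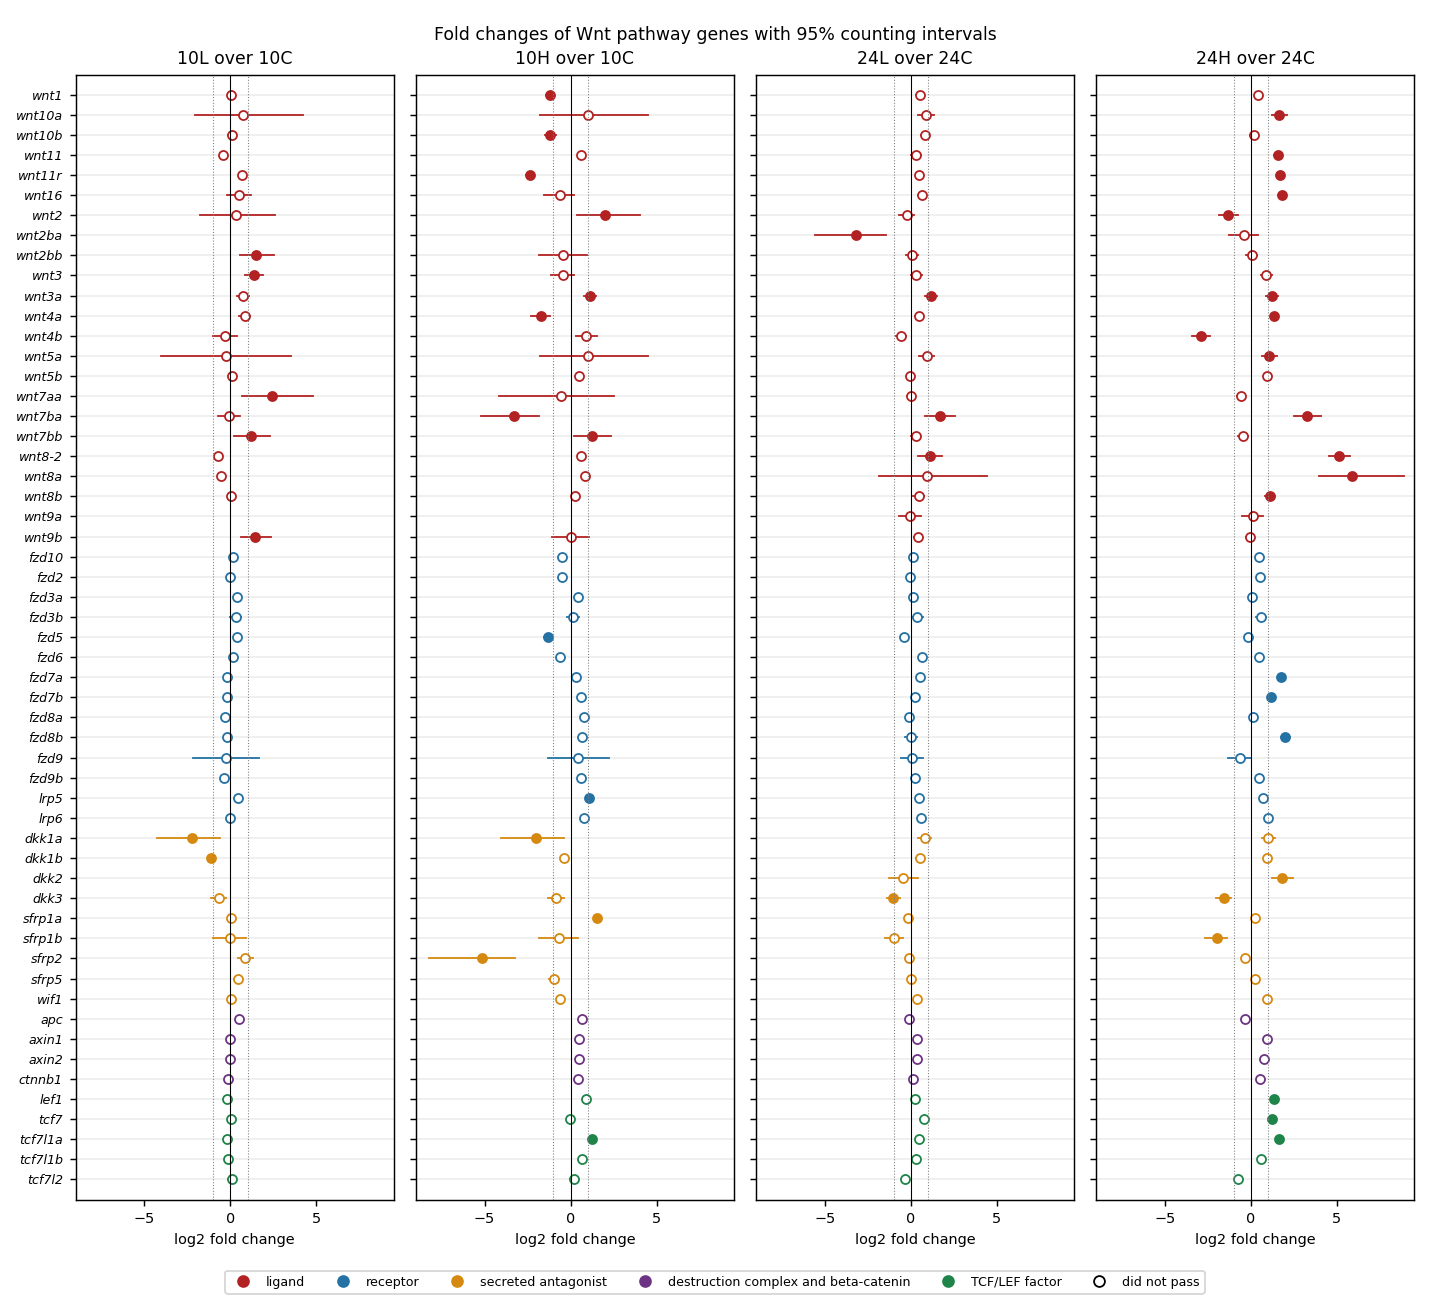
Log2 fold changes of the 55 genes (rows, coloured by their role) in the 4 treated libraries over the control of the same age, with 95% counting intervals. Filled points passed the test and open points did not; dotted lines mark 2-fold, and a gene with no reads in 1 of the 2 libraries has no point. In 24H 18 filled points lie to the right of 0 and 4 to the left.

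Age alone moved many of the 55 genes. In 24C against 10C, 21 rose and 15 fell (65.5%), with a background of 46.8% of all genes (28.6% rose and 18.2% fell), or 53.2% of those with at least 10 reads on average. Of the 23 ligands, 13 rose and 6 fell, and of the 14 receptors 2 rose and 4 fell. The antagonists had 5 that rose and 2 that fell, the β-catenin gene ctnnb1 fell, and among the TCF/LEF factors tcf7l2 rose and lef1 and tcf7 fell. Because the ages differ this much, a treated library is compared only with the control of its own age, and its level at the other age is given for orientation.

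Of the 23 ligands, 11 rose and 2 fell in 24H, 3 rose and 1 fell in 24L, 3 rose and 5 fell in 10H, and 6 rose in 10L. The share called was 56.5% in 24H (all genes 28.3%), 17.4% in 24L (7.68%), 34.8% in 10H (13.0%) and 26.1% in 10L (6.04%). In 24H wnt8a and wnt8-2 had the highest FCs of the ligands. wnt8-2 and wnt8a are the open reading frames of 1 locus whose ligands pattern the mesoderm along the embryonic axes. wnt8-2 had 6787.5, 4138.0 and 10221.4 normalized counts in 10C, 10L and 10H, and 27.8, 59.8 and 958 in 24C, 24L and 24H. It was thus low in 24C, was higher in both exposed libraries of that age, and in 24H still lay below every 10 hpf library. The FC was 34.5 in 24H (95% interval 23.4 to 53) and 2.15 in 24L (1.33 to 3.56). wnt8a had 1027.2, 706 and 1864.7 normalized counts in 10C, 10L and 10H, and 2.14, 4.12 and 124 in 24C, 24L and 24H. Its FC in 24H was 58 (15.8 to 484), with a wide interval because so few reads stood in 24C, and in 24L it was 1.93 (0.276 to 21.3), which did not pass. The wnt8 transcripts overlap, so reads could have been split between both rows and neither value is certain on its own.

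wnt3a, a ligand of the tail bud and dorsal neural tube, passed in 3 of the 4 treated libraries. It had 109, 185 and 238 normalized counts in 10C, 10L and 10H, and 104, 235 and 240 in 24C, 24L and 24H. Both controls were the lowest libraries, and the gene rose in 10H (FC 2.18, 1.72 to 2.77), in 24L (FC 2.27, 1.78 to 2.9) and in 24H (FC 2.32, 1.83 to 2.95). In 10L it was 1.69 (1.33 to 2.16) and did not pass the 2-fold limit. Between the doses, 24H over 24L gave a ratio of 1.02 (0.855 to 1.22), so at 24 hpf counting error did not separate them.

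**Figure D3:**
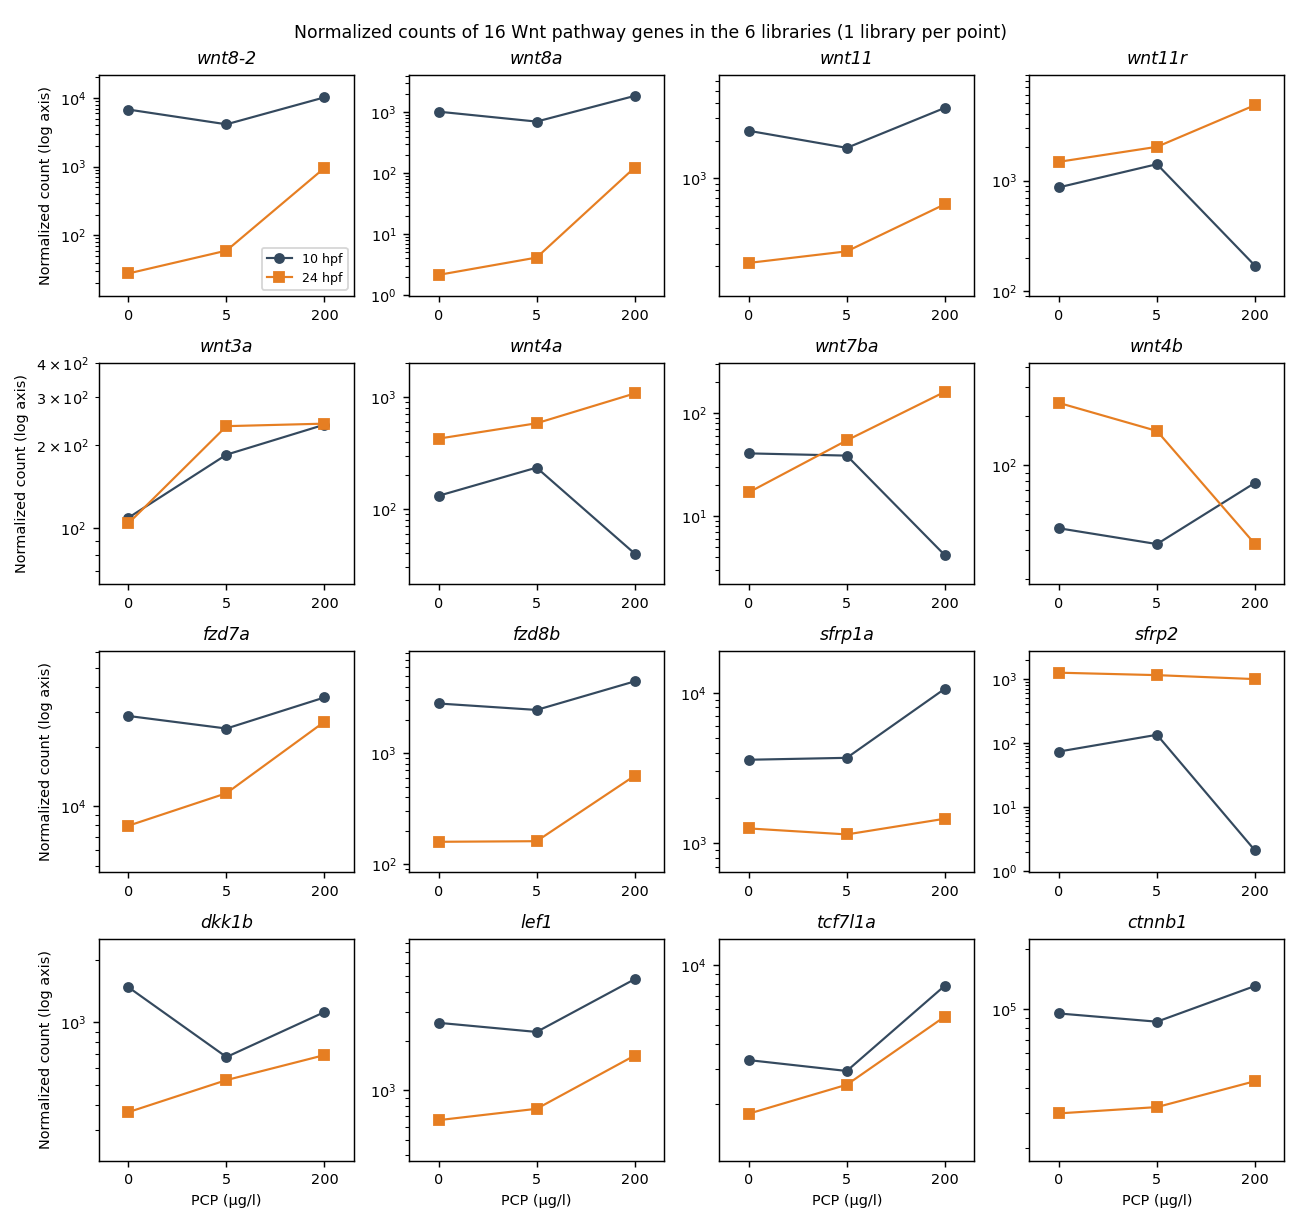
Normalized counts (log axis) of 16 of the genes at 0, 5 and 200 μg/l PCP at 10 hpf (circles) and 24 hpf (squares); each point is 1 library and no error is drawn. wnt8-2 was at 958 in 24H against 27.8 in 24C, wnt11r and wnt4a lay below control in 10H and above it in 24H, and sfrp2 was at 2.1 in 10H against 73.4 in 10C.

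Of the ligands known mainly for β-catenin-independent signalling, wnt11, wnt11r, wnt4a and wnt5a rose in 24H, and wnt5b did not pass. The paralogue of wnt4a, wnt4b, fell in 24H (FC 0.136) and is described below. The row named wnt11 (wnt11f2 in RefSeq, the gene of the silberblick mutant) drives the convergence and extension of the gastrula. It had 2391.2, 1747.0 and 3643.3 normalized counts in 10C, 10L and 10H, and 211, 261 and 620 in 24C, 24L and 24H, with an FC in 24H of 2.94 (2.51 to 3.46). wnt5b, the gene of the pipetail mutant, had 3276.7, 3548.0 and 4661.9 normalized counts in 10C, 10L and 10H, and 823, 795 and 1565.0 in 24C, 24L and 24H. Its FC of 1.9 in 24H (1.75 to 2.07) did not pass the 2-fold limit. wnt5a was barely detected at 10 hpf, with 2.1, 1.77 and 4.2 normalized counts in 10C, 10L and 10H, and had 72.7, 138 and 153 in 24C, 24L and 24H (FC 2.1, 1.58 to 2.82, in 24H).

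wnt11r (wnt11 in RefSeq), the paralogue that acts in muscle and heart, and wnt4a (wnt4 in RefSeq), which takes part in the convergence of midline organs, moved in opposite directions at the 2 ages under 200 μg/l. wnt11r had 869, 1408.2 and 170 normalized counts in 10C, 10L and 10H, and 1479.4, 2021.2 and 4818.2 in 24C, 24L and 24H. It was the lowest of all in 10H and the highest of all in 24H, with an FC of 0.196 (0.165 to 0.232) at 10 hpf and 3.26 (3.07 to 3.46) at 24 hpf. wnt4a had 131, 234 and 39.9 normalized counts in 10C, 10L and 10H, and 425, 583 and 1077.2 in 24C, 24L and 24H, with an FC in 10H of 0.305 (0.206 to 0.441) and in 24H of 2.54 (2.26 to 2.85). At 5 μg/l both lay above control at 10 hpf, with FCs of 1.62 and 1.79 that did not pass. The direct ratio of 10H over 10L was therefore lower still, 0.121 (0.102 to 0.142) for wnt11r and 0.17 (0.118 to 0.24) for wnt4a.

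wnt7ba and wnt2 also passed at both ages under 200 μg/l, in opposite directions. wnt7ba had 40.9, 38.9 and 4.2 normalized counts in 10C, 10L and 10H, and 17.1, 54.7 and 162 in 24C, 24L and 24H. It fell in 10H (FC 0.103, 0.0267 to 0.285) and rose in 24L (FC 3.19, 1.8 to 5.98) and in 24H (FC 9.47, 5.68 to 16.9), so at 24 hpf its level climbed over the doses. wnt2, which acts with wnt2bb in liver specification, had 4.2, 5.31 and 16.8 normalized counts in 10C, 10L and 10H, and 94.1, 79.4 and 37.9 in 24C, 24L and 24H. Its FC was 4.01 in 10H (1.29 to 16.5), on few reads, and 0.403 in 24H (0.274 to 0.585). wnt4b fell most of the ligands in 24H. It had 40.9, 32.7 and 77.8 normalized counts in 10C, 10L and 10H, and 241, 162 and 32.7 in 24C, 24L and 24H, with an FC of 0.136 (0.0938 to 0.193) in 24H.

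**Figure D4:**
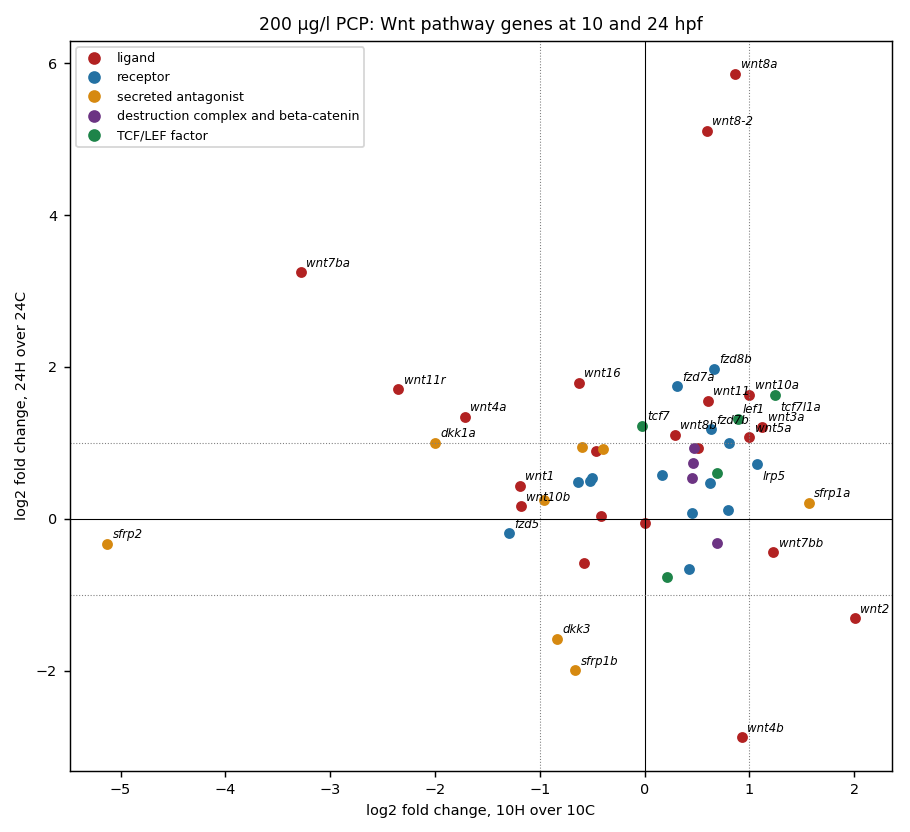
Log2 fold change in 24H over 24C (vertical) against that in 10H over 10C (horizontal) for the genes with reads in all 4 libraries; each point is 1 gene, coloured by role, and dotted lines mark 2-fold. wnt7ba, wnt11r and wnt4a lie at the upper left (lower in 10H, higher in 24H), wnt2 at the lower right, and wnt8a and wnt8-2 at the top.

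wnt1 and wnt10b, which lie next to each other in the genome and act together at the midbrain-hindbrain boundary, both fell in 10H. wnt1 had 468, 481 and 205 normalized counts in 10C, 10L and 10H (FC in 10H 0.438, 0.368 to 0.519), and 325, 476 and 440 in 24C, 24L and 24H. wnt10b had 289, 311 and 127 in 10C, 10L and 10H (FC in 10H 0.441, 0.353 to 0.548), and 405, 708 and 452 in 24C, 24L and 24H. Neither passed in a 24 hpf library. wnt8b, a ligand of the posterior forebrain and hindbrain, had 349, 361 and 427 normalized counts in 10C, 10L and 10H, and 156, 214 and 336 in 24C, 24L and 24H, and rose in 24H only (FC 2.15, 1.77 to 2.62). wnt3, also expressed in the brain, had 49.3, 126 and 35.7 in 10C, 10L and 10H (FC in 10L 2.57, 1.83 to 3.65), and 151, 191 and 281 in 24C, 24L and 24H (FC in 24H 1.86, 1.52 to 2.29, not passed).

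Of the remaining ligands with 50 reads or more where they passed, wnt10a and wnt16 rose in 24H and wnt9b rose in 10L. wnt10a, a ligand of the fin fold, had 2.1, 3.54 and 4.2 normalized counts in 10C, 10L and 10H, and 64.2, 119 and 199 in 24C, 24L and 24H (FC in 24H 3.1, 2.33 to 4.19). wnt16, which acts from the somites on the founding of blood stem cells, had 32.5, 46 and 21 in 10C, 10L and 10H, and 247, 392 and 856 in 24C, 24L and 24H (FC in 24H 3.46, 3 to 4.01). Both were already higher in 24C than in 10C, and both lay highest in 24H. wnt9b, known for its part in the facial skeleton, had 16.8, 46 and 16.8 in 10C, 10L and 10H (FC in 10L 2.74, 1.54 to 5.14), and 241, 320 and 232 in 24C, 24L and 24H.

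In 10L 6 of the 23 ligands rose and none fell, and each of these 6 had under 50 reads in 10C. Beside wnt3 and wnt9b these were wnt2bb with 35.4 normalized counts in 10L against 12.6 in 10C (FC 2.81, 1.45 to 5.88), wnt7aa with 16.8 against 3.15 (FC 5.34, 1.57 to 28.2) and wnt7bb with 29.2 against 12.6 (FC 2.32, 1.17 to 4.93). wnt9a had 9 reads in 10L against 0 in 10C, at least 2.53-fold higher when 10C is set to a floor of 3 reads. Each of the 6 also rose in 24C against 10C, as did 13 of the 23 ligands in all. wnt7bb rose in 10H also, with 29.4 normalized counts against 12.6 in 10C (FC 2.34, 1.15 to 5.05), while wnt3, wnt2bb, wnt7aa and wnt9b had FCs of 0.668 to 1 in 10H. wnt2ba, with 3 reads in 24L against 26 in 24C (FC 0.111, 0.0215 to 0.363), fell in 24L, and in 24H it had 24 reads. dkk2, wnt2ba and wnt9a had no reads in 10H and none in 10C, which in each library allows up to 3 reads.

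Of the 14 receptor genes, 3 rose in 24H, and 1 rose and 1 fell in 10H. In 24H the share called was 21.4%, all of it rises, where 11.9% of all genes rose and 28.3% were called in either direction. In 10H 14.3% was close to the background of 13.0%. Fzd7 proteins receive Wnt signals in the gastrula, and both genes for them rose in 24H. fzd7a had 28593.5, 24700.9 and 35491.1 normalized counts in 10C, 10L and 10H, and 7952.1, 11618.6 and 26748.6 in 24C, 24L and 24H (FC in 24H 3.36, 3.28 to 3.45). fzd7b had 16745.7, 14353.1 and 25892.0 in 10C, 10L and 10H, and 2734.1, 3284.4 and 6195.3 in 24C, 24L and 24H (FC in 24H 2.27, 2.17 to 2.37). fzd8b, the remaining receptor that rose in 24H, had 2811.9, 2460.0 and 4452.7 in 10C, 10L and 10H, and 159, 161 and 627 in 24C, 24L and 24H (FC in 24H 3.94, 3.3 to 4.73). The level of fzd8b in 24L was at that of 24C (FC 1.01, 0.801 to 1.27), whereas fzd7a already stood at an FC of 1.46 (1.42 to 1.5) there, within the 2-fold limit.

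fzd5, which acts in the eye field, was the receptor that fell in 10H. It had 506, 654 and 206 normalized counts in 10C, 10L and 10H (FC in 10H 0.407, 0.343 to 0.482), and 1193.8, 915 and 1047.1 in 24C, 24L and 24H. The co-receptor gene lrp5 rose in 10H, with 1100.6, 1515.3 and 2326.2 normalized counts in 10C, 10L and 10H (FC in 10H 2.11, 1.96 to 2.28), and had 1310.4, 1863.4 and 2156.2 in 24C, 24L and 24H. lrp6 had 4792.9, 4634.3 and 8393.5 in 10C, 10L and 10H, and 1520.0, 2334.7 and 3028.3 in 24C, 24L and 24H. Its FCs of 1.75 in 10H (1.69 to 1.82) and 1.99 in 24H (1.87 to 2.12) stayed just within 2-fold. No receptor passed in 10L or 24L. The other 8 receptor genes (fzd2, fzd3a, fzd3b, fzd6, fzd8a, fzd9, fzd9b and fzd10) passed in no treated library, with FCs between 0.633 and 1.74 in the libraries exposed to 200 μg/l.

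The secreted antagonists bind Wnt ligands (Sfrp proteins and Wif1) or Lrp co-receptors (Dkk1 and Dkk2 proteins) outside the cell. The divergent dkk3 was counted with them by its family name only. The group had rises and falls in it. Of the 9, 1 rose and 2 fell in 24H, 1 rose and 2 fell in 10H, 2 fell in 10L and 1 fell in 24L. The share called was 33.3% in 24H (all genes 28.3%), 33.3% in 10H (13.0%), 22.2% in 10L (6.04%) and 11.1% in 24L (7.68%). In 10H 7 of the 8 with reads lay below their 10C level and 1 above it, with a median log2 fold change of -0.72, and in 24H 3 lay below their 24C level and 6 above it. sfrp2 showed the lowest FC among the 52 genes with reads in 10H, where 2 of its reads were left. It had 73.4, 134 and 2.1 normalized counts in 10C, 10L and 10H, with an FC of 0.0286 in 10H (0.0034 to 0.107). At 24 hpf it had 1247.3, 1142.6 and 991 in 24C, 24L and 24H and did not pass. sfrp1a rose in 10H, with 3588.4, 3694.9 and 10626.1 in 10C, 10L and 10H (FC 2.96, 2.85 to 3.08), and had 1255.8, 1145.7 and 1456.4 in 24C, 24L and 24H. sfrp1b fell in 24H: it had 19.9, 19.5 and 12.6 in 10C, 10L and 10H, and 96.3, 49.5 and 24.1 in 24C, 24L and 24H (FC in 24H 0.251, 0.158 to 0.387). sfrp5 (FC 0.514, 0.416 to 0.632, in 10H) and wif1 (FC 1.93, 1.78 to 2.11, in 24H) passed in no treated library.

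Of the Dkk genes, dkk1b encodes an antagonist from the anterior axial mesoderm that is needed for head formation. It had 1480.5, 680 and 1122.6 normalized counts in 10C, 10L and 10H, and 368, 526 and 695 in 24C, 24L and 24H. It fell in 10L (FC 0.459, 0.42 to 0.502) but not in 10H (0.758, 0.7 to 0.822), and the ratio of 10H over 10L was 1.65 (1.5 to 1.81). Scaled to library totals its FC in 10L was 0.503, which no longer passed. dkk1a had 3.54 normalized counts in 10L and 4.2 in 10H against 16.8 in 10C, and fell in both (FC 0.211, 0.0513 to 0.653, and 0.25, 0.0609 to 0.776). At 24 hpf it had 184 in 24H and 161 in 24L against 92 in 24C, and its FC of 2 in 24H (1.55 to 2.59) was at the 2-fold limit and did not pass.

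dkk2, whose product can raise or lower Wnt signalling depending on the cell, had 0, 2.65 and 0 normalized counts in 10C, 10L and 10H, and 32.1, 23.7 and 112 in 24C, 24L and 24H. It was the antagonist that rose in 24H (FC 3.49, 2.33 to 5.38). dkk3 (dkk3b in RefSeq), a divergent relative of the family, had 114, 71.7 and 64.1 in 10C, 10L and 10H, and 172, 85.6 and 57.7 in 24C, 24L and 24H. It lay below control in all 4 treated libraries and fell in 24L (FC 0.497, 0.377 to 0.652) and 24H (0.335, 0.248 to 0.448), while the FCs of 0.627 in 10L and 0.561 in 10H did not pass.

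Inside the cell, none of the 4 genes of the destruction complex and β-catenin passed in any treated library. ctnnb1, which encodes β-catenin, had 94676.0, 86107.2 and 129966.6 normalized counts in 10C, 10L and 10H, and 29932.1, 32182.0 and 43386.9 in 24C, 24L and 24H. Its FCs of 1.37 in 10H (1.36 to 1.38) and 1.45 in 24H (1.43 to 1.47) had narrow counting intervals above 1 and remained within 2-fold. The scaffold gene axin1 had 4778.2, 4782.0 and 6638.0 in 10C, 10L and 10H, and 2572.6, 3258.6 and 4886.3 in 24C, 24L and 24H (FC in 24H 1.9, 1.81 to 1.99). axin2, both a scaffold and a widely used Wnt target, had 4382.6, 4279.6 and 6048.3 in 10C, 10L and 10H, and 2636.8, 3337.0 and 4372.6 in 24C, 24L and 24H (FC in 24H 1.66, 1.58 to 1.74). apc, the scaffold that binds β-catenin, had 4030.1, 5611.7 and 6487.7 in 10C, 10L and 10H, and 4136.5, 3836.1 and 3304.9 in 24C, 24L and 24H, so that it lay above control in 10H (FC 1.61, 1.55 to 1.68) and below it in 24H (FC 0.799, 0.764 to 0.836).

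Of the 5 TCF/LEF genes 3 rose in 24H, where 11.9% of all genes rose. lef1, a transcriptional activator, had 2590.5, 2277.8 and 4790.1 normalized counts in 10C, 10L and 10H, and 657, 771 and 1633.1 in 24C, 24L and 24H (FC in 24H 2.49, 2.27 to 2.73). Its FC of 1.85 in 10H (1.76 to 1.94) did not pass. tcf7 had 1402.8, 1444.5 and 1381.2 in 10C, 10L and 10H, and 310, 527 and 726 in 24C, 24L and 24H (FC in 24H 2.34, 2.05 to 2.69). tcf7l1a, the gene of the headless mutant, encodes a factor that represses Wnt targets in the head territory, and it rose at both ages under 200 μg/l. It had 3321.9, 2927.9 and 7884.7 in 10C, 10L and 10H, and 1783.2, 2495.5 and 5508.5 in 24C, 24L and 24H, with an FC in 10H of 2.37 (2.28 to 2.48) and in 24H of 3.09 (2.93 to 3.26). The ratio of 200 over 5 μg/l was 2.69 (2.58 to 2.81) at 10 hpf and 2.21 (2.11 to 2.31) at 24 hpf. tcf7l1b (FC 1.52, 1.42 to 1.63, in 24H) and tcf7l2 (FC 0.586, 0.53 to 0.648, in 24H) passed in no treated library.

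A further 124 genes of the pathway, in 5 lists, were read in the same way. In 24H 41 rose and 16 fell (46%, background 28.3%), with a median log2 fold change of 0.51. In 24L 11 rose and none fell (8.87%, background 7.68%), in 10H 13 rose and 6 fell (15.3%, background 13.0%), and in 10L 4 rose and 1 fell (4.03%, background 6.04%). The rises of 24H and 24L lay mostly in 1 list, that of 31 Wnt-responsive genes of the gastrula and tail bud. These were transcription factors and the cyclin gene ccnd1. In this list 23 rose and 1 fell in 24H, with a median log2 fold change of 2.31, and all 11 rises of 24L stood in it. Between the controls this list moved the other way: in 24C against 10C 4 rose and 24 fell, with a median of -3.37. The late gastrula markers described below had a median of -3.78 in that comparison. Like the other lists, this one was chosen with earlier results of these data known.

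Among the genes of this list with reads in 24C, the segmentation-clock gene her1 had the highest FC in 24H. her1 had 1759.6, 1864.7 and 2600.6 normalized counts in 10C, 10L and 10H, and 5.35, 94.9 and 735 in 24C, 24L and 24H. Its FC was 137 in 24H (58.7 to 424) and 17.7 in 24L (7.33 to 55.9). mespb, a relative of mespa, had 145 reads in 24H and 0 in 24C. With 24C set to the floor of 3 reads mespb was at least 38.9-fold higher in 24H, and it cannot be ranked against her1. mespa (mespaa in RefSeq), of somite boundary formation, had 425 in 24H and 28.9 in 24L against 4.28 in 24C, an FC of 99.3 in 24H (38.5 to 366). tbx16, a regulator of the paraxial mesoderm, had 5298.6, 6380.4 and 15859.8 in 10C, 10L and 10H, and 27.8, 165 and 2381.1 in 24C, 24L and 24H, an FC of 85.6 in 24H (58.3 to 131). vent and msgn1 are a ventral repressor and a regulator of presomitic mesoderm. Among the genes of the list with reads in 24C, they had the next highest FCs after her1 in 24L. These were 10.5 (6.64 to 17.5) for vent and 8.58 (6.69 to 11.1) for msgn1. mespb, with 22 reads in 24L and 0 in 24C, was at least 7.07-fold higher and cannot be ranked there either. The gene that fell in 24H was hoxa1a, with 48.3 in 24H against 120 in 24C (FC 0.403).

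In 10H, where 6.69% of all genes rose and 6.33% fell, the same list had 5 genes that rose and 4 that fell. The highest FCs were those of tbx16 (2.99, 2.9 to 3.09), mespa (2.7, 2.3 to 3.18) and the Wnt target sp5l (2.3, 2.24 to 2.36). gbx2, which acts at the midbrain-hindbrain boundary, fell to 300 normalized counts in 10H, against 1633.6 in 10C (FC 0.183, 0.161 to 0.208). The Myc genes fell too, myca to 45.2 in 10H, against 177 in 10C (FC 0.255, 0.178 to 0.358), and mycb with an FC of 0.487.

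The remaining lists had rises and falls alike in 24H, and only genes that reached 50 reads in 1 of the 2 libraries are named from them. Of all genes tested, 11.9% rose and 16.4% fell in 24H, 28.3% in all. The shares called in the cytoplasmic relay and nuclear co-factor lists lay below that background. Those of the secretion and planar cell polarity lists lay above it. Of 23 genes of Wnt secretion and receptor-level modulators 7 rose and 5 fell. The highest FCs were those of the secreted antagonist frzb (4.67, 3.38 to 6.59), tmem67 (3.81) and the row that RefSeq names ror2 (3.16), and the lowest those of the rows that RefSeq names notum2 (0.139), porcn (0.161) and sost (0.452). Of 29 genes of the cytoplasmic relay 3 rose and 4 fell, with dact2 (4.77), tnks (3.19) and dact1 (2.42) highest, and apc2 (0.266), csnk1e (0.274) and ctnnbip1 (0.392) lowest. Of 18 nuclear co-factors 2 rose and 3 fell. bcl9l, which links β-catenin to chromatin factors, had the highest FC (4.33, 3.98 to 4.71) and aes (tle5 in RefSeq) the lowest (0.327). Of 23 genes of planar cell polarity, the branch that orients cells within a sheet, 6 rose and 3 fell, with prickle1a (8.55, 7.54 to 9.74), prickle1b (3.3) and rock2b (3.18) highest and celsr3 (0.404) and rhoab (0.476) lowest.

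Markers of embryonic stage moved along with these results at 24 hpf. Of 21 markers of the late gastrula, 11 rose and none fell in 24H, and 5 rose and 1 fell in 24L. In 24C against 10C 16 of them fell and 3 rose. Their summed normalized counts were 702420.1, 546017.3 and 729837.5 in 10C, 10L and 10H, and 1349577.1, 2321622.6 and 2120745.4 in 24C, 24L and 24H, made up mostly by 4 surface and hatching-gland genes (krt4, cyt1, ctsl1b and he1a). Without those 4, set aside after their values were seen, the sum was 61905.5, 46641.0 and 111542.0 in 10C, 10L and 10H, and 3492.5, 5360.2 and 14860.4 in 24C, 24L and 24H. Of the markers 4 (mxtx2, ndr1, ndr2 and sox32) had no reads in 24C, 1 (ndr1) had none in 24L and 1 (mxtx2) none in 24H. The list shares 6 of its 21 genes (eve1, sox17, tbx16, ved, vent and vox) with the pathway lists above.

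Of 28 markers of prim-5 embryos (haemoglobin, muscle, lens, neuron, pigment and blood cell genes), none rose and 26 fell in 24H, and none rose and 7 fell in 24L. Their summed normalized counts were 1013271.3 in 24C, 665102.8 in 24L and 114856.4 in 24H, and lay between 9154.5 and 11903.3 at 10 hpf. Most of the 10 hpf sum came from the leukocyte gene lcp1, which had 9220.6 in 10C and fell in 24C against 10C (FC 0.112) and in 24H against 24C (FC 0.485). Without it, left out after its values were seen, the sum was 1012239.0 in 24C, 664240.7 in 24L and 114355.7 in 24H, and between 1846.9 and 2374.2 at 10 hpf. All 28 had reads in 24C and 24L, and 1 (crygm2d3) had none in 24H. Of the late gastrula markers, none rose and 1 fell in 10L, with a median log2 fold change of -0.44. None of the prim-5 markers rose or fell in 10L, and their median was -0.27.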

How the data were processed

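RNA of whole zebrafish embryos was sequenced on an Illumina HiSeq platform, with 1 library from a pool of embryos for each of 6 groups. The authors used Tophat for mapping and a search against the human genome for further annotation, and deposited normalized counts per gene (a signal scaled by the trimmed mean of M-values in edgeR). The labels and the methods name different zebrafish assemblies, and the read counter is not named in the sources used here, so no coordinates are printed. Within 0.001 reads, 100% of the values were whole multiples of what 1 read was worth, so reads were recovered. The 11 rows merged under clone prefixes, holding 13.9% to 15.5% of the reads, were left out of the tests.

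Each gene was tested with a two-sided exact binomial test (SciPy 1.17.1) on the reads of 2 libraries, with the study's limits of 2-fold and unadjusted p under 0.05. This test was checked on simulated data that held counting error only, so the check does not cover spread between pools. Alternatives included other scalings, limits and read minimums, a model of the MA plot, and edgeR 4.0.16 (exact test), for which a coefficient of variation between pools of 0.2 or 0.4 was assumed. With 1 library a group, the counts are precise and the spread between pools is unknown.

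Members and gene lists were chosen with earlier results of these data known. Values in all 6 libraries are given for members that passed where the higher library held at least 50 reads, and for 12 named ones whatever their values. From each list the 3 highest and 3 lowest fold changes among such genes are named. Symbols follow the deposited table, and all 55 matched the RefSeq gene table of assembly GRCz12tu by gene ID, which also gave the neighbouring genes.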

Additional observations from a re-analysis of the deposited data

Results flagged for a closer look

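The 4 ligands that passed the test at both ages under 200 μg/l PCP in opposite directions were wnt7ba (FC 0.103 in 10H against 10C and 9.47 in 24H against 24C), wnt4a (0.305 and 2.54), wnt11r (0.196 and 3.26) and wnt2 (4.01 and 0.403). Whether the effect differs between the ages was not tested, since each group had 1 library. wnt7ba rested on 4 reads in 10H and wnt2 on 16 reads in 10H against 4 reads in 10C, while wnt11r had at least 162 reads in every library.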

How the results depend on the processing

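No paired analysis was possible because each group had 1 library and the labels carry no replicate numbers, and no replicate could be left out. No fold change of a member that rose or fell reversed under an alternative. The counts of the 55 genes and of the 124 further pathway genes did move, as given below. In 24L the 55 genes had more rises than falls, but not with a 4-fold limit or with edgeR at 0.4. Nor did they when scaled to library totals, where 3 rose and 3 fell. Scaled to library totals, 6 fold changes of the 55 in 10L, 1 in 10H and 3 in 24L crossed 1, none of them past the test (in 10L axin2, fzd2, lrp6, sfrp1b, tcf7l1b and wnt7ba). Under that scaling the median of all genes in 10L moved to 0.11 and that of the 55 genes to 0.17, 1 of the 55 fell there (dkk1b no longer did), and sfrp1b newly fell in 24L. With at least 100 reads the medians of the 55 were 0.46 in 10H, 0.72 in 24H and -0.34 in 24C against 10C, the last against 0.04 with at least 10 reads. With a 4-fold limit 10L had 2 of the 55 that rose and 1 that fell, 10H had 1 and 3, 24L had 0 and 1, and 24H had 3 and 1, while 7 fell in 24C against 10C. The 2 that rose in 10L include wnt9a. With 0 reads in 10C its ratio was taken as past any limit, although its lower bound was only 2.53-fold. With the 4-fold limit the share called was 5.45% of the 55 against 1.90% of all genes for 10L, 7.27% against 3.96% for 10H, 1.82% against 2.12% for 24L, and 7.27% against 10.5% for 24H. With the 2-fold limit 24L and 24H had lain above all genes instead (9.09% against 7.68%, and 40% against 28.3%). With edgeR and an assumed coefficient of variation of 0.4, 10L had 2 that rose and 0 that fell, 10H had 0 and 3, 24L had 0 and 1, and 24H had 7 and 2; at 0.2 no count of the 55 moved by over 1.5 times, and wnt7bb no longer rose in 10L and 10H. At 0.4 edgeR called 254 (10L), 694 (10H), 352 (24L) and 2436 (24H) genes of the whole table, while the binomial limits called 1282, 2761, 1629 and 6012, so that the counts depend on a spread that these data cannot measure. Of the 124 further pathway genes, a 4-fold limit left 2 that rose in 10L, 4 that rose and 3 that fell in 10H, 6 that rose in 24L, and 20 that rose and 2 that fell in 24H. With edgeR at 0.4 the numbers were 2 that rose in 10L, 1 that rose and 3 that fell in 10H, and 26 that rose and 4 that fell in 24H. The 1 gene that fell in 10L was 0 with at least 10 reads, after Benjamini-Hochberg adjustment and in edgeR at 0.2 and 0.4. With no test, 10 rose and 2 fell in 10L and 1 fell in 24L, and the MA-plot model had 1 that fell in 24L.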
